A study of Mus musculus with 8 samples.

Results

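Imprinted genes are expressed mainly or wholly from the chromosome inherited from 1 parent. The members were 42 such genes of the mouse that lie outside the Dlk1-Dio3 locus. They were taken by gene symbol from a list that was chosen with earlier results of these data known. The members were 42 of the 36920 genes of the count table and fall into 18 clusters. Textbook knowledge of the mouse gives 18 as maternally expressed and 23 as paternally expressed, while the expressed allele of Gnas differs by transcript. The measurement was RNA sequencing of R1 cells, a mouse embryonic stem (ES) cell line kept in serum with LIF. There were 8 libraries in 4 groups of 2. ML-792 inhibits the E1 enzyme that starts the attachment of SUMO, a small protein modifier, and was given for 48 h on 2 occasions at a dose labelled 2.5 mM, a unit that could not be checked here.

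The D3 group was taken at the end of the first exposure, and the D1 group, labelled control, before it. The D10 group was taken at the end of the second exposure, and the D8 group, also labelled control, before it. D8 cells had been through the first exposure and had then had 5 days without the inhibitor. No untreated D3 or D10 library was analysed here, so the effects of the inhibitor and of 48 h in culture cannot be told apart. D1 replicate 2 carries a time tag of day 0 but the title D1, and was kept in that group. No label says whether the 2 libraries of a group came from separate cultures, so the p-values speak for the spread of these libraries alone, which may be technical.

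An imprint is DNA methylation laid down in the egg or the sperm at an imprinting control region, which is kept on that parent's chromosome through the reprogramming of the early embryo. KRAB zinc finger proteins such as ZFP57 bind the methylated copy and bring in TRIM28, SETDB1 and the DNA methyltransferases. TRIM28 and several of its partners are SUMO targets, which ties SUMO to this silencing. ES cells in culture are known to lose imprints at some loci. Gene counts do not separate the alleles, so a level here is the sum of both copies, and no value below says which copy it came from. In bulk RNA, more cells that express a gene and more RNA per cell cannot be told apart.

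Libraries held 21040992 to 40835518 reads in genes. Levels are reads scaled to a common library total (CPM) after TMM scaling, and levels between genes are compared only as CPM per kilobase of exon (RPKM). The rank correlation (Spearman) of levels with transcript GC content was taken across 14693 coding genes, which are not independent replicates. D8 replicate 2 stood apart at 0.548, where the remaining libraries gave -0.341 to 0.115. The correlation was -0.318 and -0.297 at D3, against -0.0755 and 0.115 at D1. It was -0.341 and 0.0133 at D10, against 0.104 and 0.548 at D8. In each exposure both ML-792 libraries thus lay below both control libraries, so this trend goes with the exposure. Results with a correction for GC content are given below. ES cell markers were present in every library, and their 8 genes summed to 3980 and 4030 CPM at D3, against 5210 and 5600 CPM at D1, and to 2940 and 3340 CPM at D10, against 5360 and 5290 CPM at D8. Of the 8, 2 fell in the first exposure and 6 in the second, and 0 rose in either. The log2 changes in the first and second exposure were -0.46 and -0.70 for Pou5f1, 0.10 and 0.00 for Sox2, and -0.76 and -0.96 for Nanog. All 6 markers of the 2-cell-like state rose in each exposure, among them Zscan4c (log2 4.55 and 5.78). Their sum was 2140 and 647 CPM at D3, against 74.0 and 37.1 CPM at D1, and 461 and 449 CPM at D10, against 5.46 and 9.45 CPM at D8. Of 10 fibroblast markers, which feeder cells would carry, 6 were tested, and the 10 summed to 22.5 to 40.3 CPM over the 8 libraries. Twist2 rose in the first exposure, with 10 and 4 reads at D3 and 0 reads in both D1 libraries. In the second Fbn1 rose and Pdgfrb fell. Of 7 neural markers 6 were tested and 1, Tubb3, fell in each exposure by edgeR, with sums of 117 to 160 CPM. DESeq2 called 1 higher and 1 lower in the first exposure, and 2 higher and 2 lower in the second. Nes was higher in both (log2 0.94 and 0.85) with no call by edgeR. No marker of any list was at 0 in all libraries. The part of these shifts in the members' results was not tested.

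Most members were expressed. Of the 42, 28 had a mean of at least 1 RPKM over the 8 libraries and 14 lay under it. The highest mean levels were those of Cd81, a tetraspanin, at 62.7 RPKM, Slc38a4, an amino acid transporter, at 51.6 RPKM, and Mcts2, a retrogene inside H13, at 46.9 RPKM. The next were Impact, a regulator of the kinase GCN2, at 33.3 RPKM and Mest at 32.1 RPKM. Several of these ranges touched: Mest ran from 28.6 to 35.7 RPKM inside the wider range of Impact, and Cd81 from 47.7 to 99.0 RPKM across that of Slc38a4. Snrpn, which encodes a splicing protein, was the steadiest in the figure of levels per length at 11.1 to 13.5 RPKM. H19, a noncoding RNA, was among the most variable at 2.04 to 26.9 RPKM.

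A further 3 members were too low to test, which left 39. Igf2, the fetal growth factor next to H19, had 0 reads in 6 libraries and 2 and 5 reads in the D8 libraries. Of its exonic bases 62.8% are shared with Gm49394 on the same strand, which had 25 reads in all, and how reads of both genes were counted is not given in the sources used here. Kcnk9, a potassium channel gene, had 3 reads in all 8 libraries together, and Rasgrf1, a Ras exchange factor, had 21. No change of these could be detected at this depth. The 39 tested were 17 maternally expressed genes, 21 paternally expressed genes and Gnas.

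**Figure D1:**
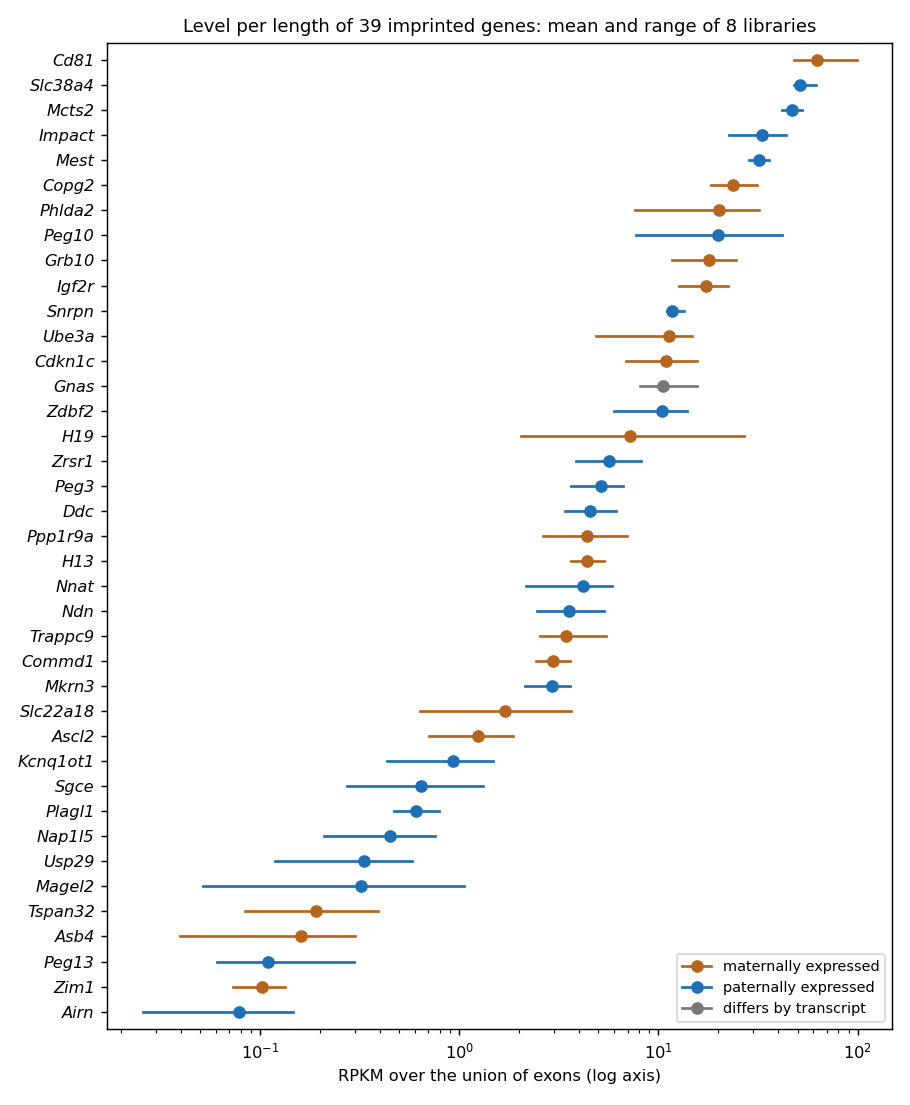
Mean level (points) and lowest to highest level (lines) over the 8 libraries for the 39 tested imprinted genes, in RPKM on a log axis, coloured by the expressed allele. Levels run from 0.0787 RPKM for Airn to 62.7 RPKM for Cd81, and maternally and paternally expressed genes are found along the whole range.

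In the first exposure 8 of the 39 tested members passed an adjusted p of 0.05 in edgeR's quasi-likelihood test, with Benjamini-Hochberg adjustment over 19173 genes. That is 20.5%, against a background of 13% of all genes tested. Of these 6 rose (Magel2, Asb4, Peg10, Usp29, Impact and Igf2r), where 7.92% of all genes rose, and 2 fell (Phlda2 and Slc22a18), where 5.10% of all genes fell. Among paternally expressed genes 4 of 21 rose and 0 fell; at an unadjusted p under 0.05, 7 were higher and 0 lower, and DESeq2 called 4 higher and 0 lower. Among maternally expressed genes 2 of 17 rose and 2 fell. The median log2 fold change was 0.46 over the paternally expressed genes and -0.13 over the maternally expressed ones, beside 0.00 over all genes tested. A correction for GC content in each library lowered the paternal median to 0.21, beside -0.06 over all genes. Under it 6 members were higher and 4 lower, where 19.6% of all genes passed. Among the lower was the paternally expressed Slc38a4 (log2 -0.41, adjusted p = 0.049).

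The first exposure's count rested on few libraries. It was 2 members when either D1 library was left out, 2 in the absence of D3 replicate 1 and 3 in that of D3 replicate 2. The share of all genes called was 1.91% to 5.58% in these 4 fits. Phlda2 and Magel2 passed the test in all 8 fits that left out a library.

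In the second exposure 9 of 39 members passed, or 23.1%, against a background of 16.9%. Of these 6 rose (Magel2, Asb4, Usp29, Peg10, Zrsr1 and Impact), where 9.27% of all genes rose, and 3 fell (Slc22a18, Phlda2 and Copg2), where 7.65% of all genes fell. Paternally expressed genes gave 5 rises and 0 falls among 21; at an unadjusted p under 0.05, 8 were higher and 0 lower, and DESeq2 called 5 higher and 0 lower. Maternally expressed genes gave 1 rise and 3 falls among 17. The medians were 0.51 over the paternally expressed genes and -0.08 over the maternally expressed ones, beside 0.03 over all genes. With the GC correction the paternal median was 0.23, beside -0.04 over all genes. Under it 4 maternally expressed genes rose and 3 fell, where 21.7% of all genes passed. Without D10 replicate 2 the count was 4 members (10.1% of all genes), and without D8 replicate 2 it was 6 (8.99% of all genes). When the D10 and D8 libraries were fitted alone, 3 members passed (Phlda2, Magel2 and Asb4), where 8.21% of all genes did. In that fit the adjusted p was 0.068 for Usp29, 0.050 for Peg10, 0.052 for Slc22a18, 0.076 for Impact, 0.12 for Copg2 and 0.14 for Zrsr1.

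The exposures share no library. In both, 7 members passed, all in the same direction, which is 87.5% of the first exposure's members and 77.8% of the second's. Over all genes 1913 passed in both, which is 76.6% and 59.0% of the lists. The members in both were Phlda2, Slc22a18, Usp29, Peg10, Asb4, Magel2 and Impact. Members known as imprinted only in some tissues gave 0 calls of 10 in the first exposure (1 at an unadjusted p under 0.05, 0 by DESeq2) and 1 of 10 in the second (3 at an unadjusted p under 0.05, 2 by DESeq2). The other members gave 8 of 29 in each, beside 13% and 16.9% of all genes. The difference between these shares was not tested. No member passed edgeR's test of the difference between the exposures, and of the 19173 genes 0 did (background 0%); 1 member, Cdkn1c, had an unadjusted p under 0.05, and DESeq2 called 0 members.

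**Figure D2:**
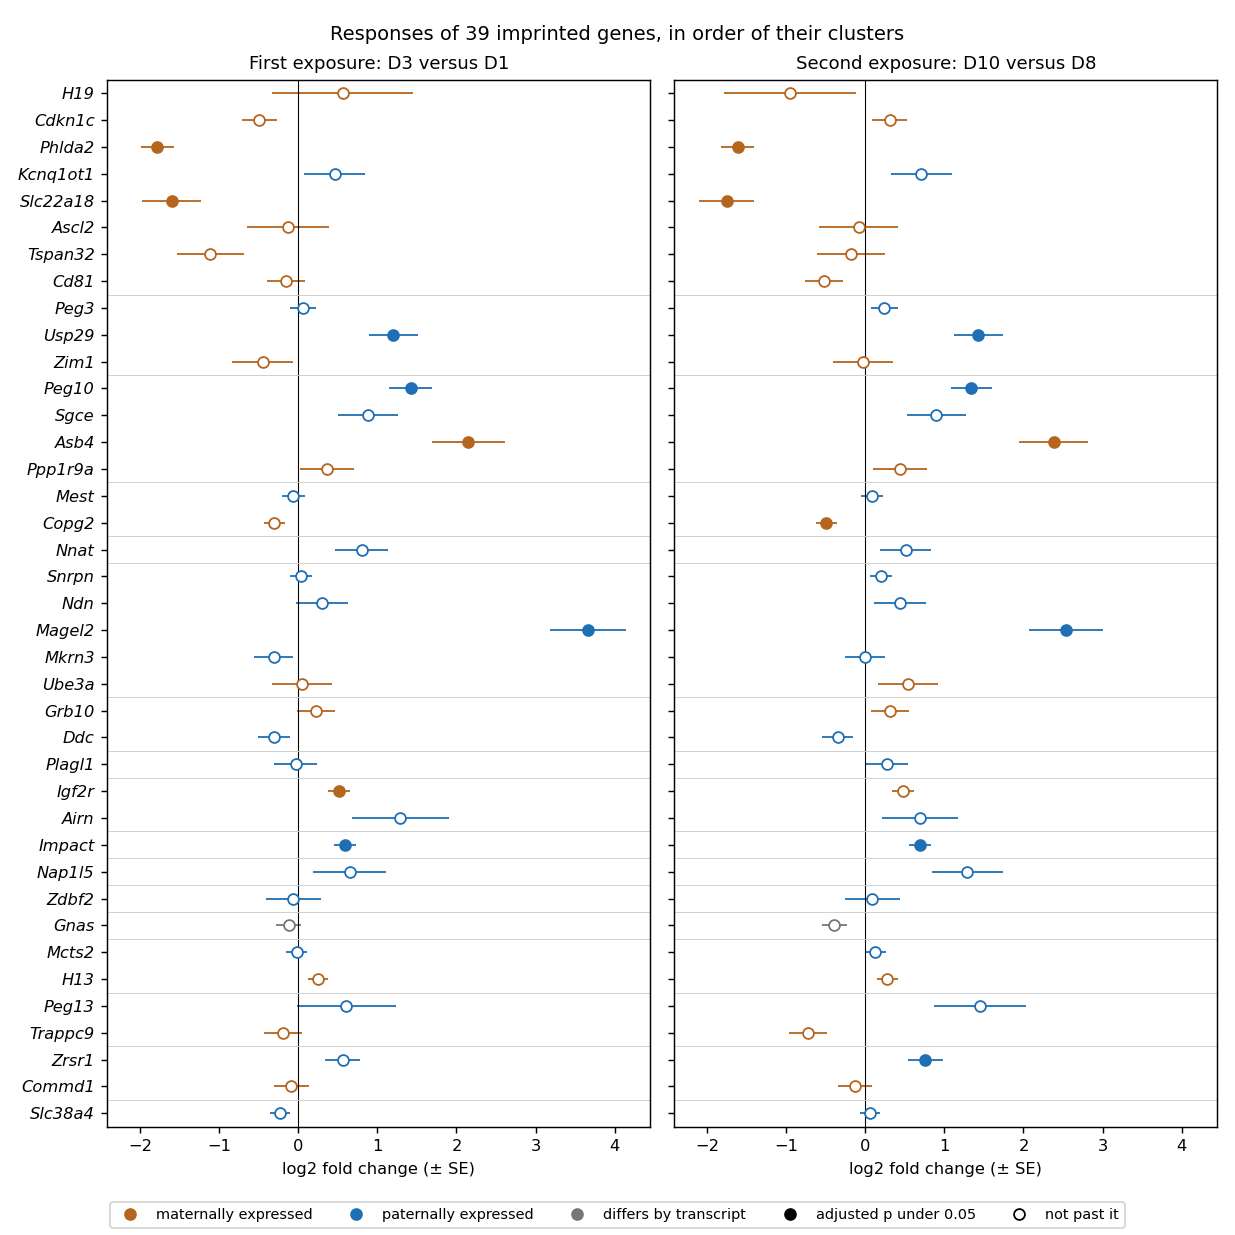
Log2 fold change with its SE for the 39 tested imprinted genes in the first exposure (D3 against D1, left) and the second (D10 against D8, right), in order of cluster. Filled points passed an adjusted p of 0.05 in edgeR's test; 0 paternally expressed genes (blue) passed on the lower side in either panel.

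The distal chromosome 7 clusters hold H19 and Igf2 on the one side and the genes silenced by the noncoding RNA Kcnq1ot1 on the other. Of their 8 tested members 2 fell in each exposure and 0 rose, where 5.10% and 7.65% of all genes fell. The falls were Phlda2, which restrains growth of the placenta, and Slc22a18, a transporter, whose genes lie side by side on opposite strands and are both maternally expressed.

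Phlda2 read 12.0 and 8.52 CPM in the D3 libraries, against 34.7 and 35.7 CPM at D1. It read 9.59 and 12.6 CPM at D10, against 32.6 and 35.6 CPM at D8. Every ML-792 library thus lay below every control library, and the D8 libraries overlapped those of D1. The log2 fold changes were -1.78 ± 0.21 (SE; adjusted p = 0.0028) and -1.61 ± 0.21 (adjusted p = 0.0026).

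Slc22a18 read 1.09 and 1.08 CPM at D3, against 2.87 and 3.72 CPM at D1. It read 1.09 and 2.11 CPM at D10, against 4.77 and 6.21 CPM at D8. Here too all 4 ML-792 libraries lay below all 4 control libraries. The log2 fold changes were -1.60 ± 0.37 (adjusted p = 0.026) and -1.75 ± 0.35 (adjusted p = 0.013). The first call was lost when any D1 or D3 library was left out. The adjusted p was then 0.068 and 0.16 for D1 replicates 1 and 2, and 0.14 and 0.13 for those of D3. The second was lost without D10 replicate 1 (adjusted p = 0.06).

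The promoter windows of these neighbours are shown because they fell together and yet differ in CpG content. They come from RefSeq on GRCm38.p6 and run from 250 bases before the start to 50 after it, 5′ to 3′ on the gene's strand, with each CpG in capitals. Phlda2 lies at chr7:143502475-143502774 on the minus strand with 26 CpGs, and its RefSeq start is inside the GENCODE gene. Slc22a18 lies at chr7:143473539-143473838 on the plus strand with 2 CpGs.
Phlda2: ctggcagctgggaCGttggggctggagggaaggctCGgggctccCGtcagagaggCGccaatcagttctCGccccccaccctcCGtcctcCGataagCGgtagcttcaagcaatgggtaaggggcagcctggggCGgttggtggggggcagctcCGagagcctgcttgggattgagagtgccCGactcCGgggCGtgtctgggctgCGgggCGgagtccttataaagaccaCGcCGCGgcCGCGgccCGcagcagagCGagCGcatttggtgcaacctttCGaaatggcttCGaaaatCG
Slc22a18: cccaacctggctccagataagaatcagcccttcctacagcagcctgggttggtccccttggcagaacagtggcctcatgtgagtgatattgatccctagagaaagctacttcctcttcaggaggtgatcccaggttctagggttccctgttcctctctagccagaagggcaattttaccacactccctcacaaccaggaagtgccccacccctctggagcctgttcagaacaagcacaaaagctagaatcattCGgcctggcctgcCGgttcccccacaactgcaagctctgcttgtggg

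No other member of the region passed the test in either exposure. Cdkn1c, the cell cycle inhibitor p57, read 17.7 and 25.9 CPM at D3, against 29.3 and 32.0 CPM at D1, and 19 and 21.4 CPM at D10, against 14.0 and 18.7 CPM at D8. Neither change passed the test (log2 -0.49 ± 0.22, adjusted p = 0.19, and 0.31 ± 0.22, adjusted p = 0.38). Within a library Phlda2 gave 67.7 and 33.0 reads per 100 reads of Cdkn1c, 40494 bases away, at D3, against 118 and 112 at D1, and 50.4 and 59.0 at D10, against 233 and 191 at D8. All 4 ML-792 values of this ratio lay below all 4 control values.

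Kcnq1ot1, the antisense RNA that silences the region on the paternal chromosome, read 121 and 95 CPM at D3, against 87.1 and 70.5 CPM at D1, and 137 and 63.7 CPM at D10, against 82.0 and 40.4 CPM at D8. The changes of 0.46 ± 0.39 (adjusted p = 0.49) and 0.71 ± 0.39 (adjusted p = 0.25) did not pass, although the second did without D8 replicate 1 (log2 1.30, adjusted p = 0.047). Ascl2, a trophoblast factor, Tspan32 and Cd81, both tetraspanins, had log2 values of -0.13, -1.11 and -0.16 in the first exposure and -0.08, -0.18 and -0.52 in the second, with no call. Cd81 passed in the second without D8 replicate 1 (log2 -0.80, adjusted p = 0.037).

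The Peg3 domain of proximal chromosome 7 starts from a shared control region. Usp29, a deubiquitinase gene, and Peg3, a zinc finger gene, run away from each other there, and their RefSeq starts are 164 bases apart. Usp29 read 10.5 and 8.66 CPM at D3, against 4.59 and 3.76 CPM at D1. It read 6.07 and 8.93 CPM at D10, against 2.16 and 3.41 CPM at D8. All 4 ML-792 libraries lay above all 4 control libraries. It rose by 1.20 ± 0.31 on the log2 scale (adjusted p = 0.035) and by 1.43 ± 0.31 (adjusted p = 0.016). The first call was lost without D1 replicate 1 (adjusted p = 0.12), D1 replicate 2 (0.21), D3 replicate 1 (0.21) or D3 replicate 2 (0.095), and with the GC correction (log2 1.02, adjusted p = 0.058). The second was lost without D10 replicate 2 (adjusted p = 0.084).

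Peg3 read 65.7 and 53.3 CPM at D3, against 48.5 and 65.5 CPM at D1, where the groups overlap, and 83.8 and 88.2 CPM at D10, against 71.5 and 74.2 CPM at D8. Its log2 changes were 0.06 ± 0.17 (adjusted p = 0.85) and 0.24 ± 0.17 (adjusted p = 0.38). Usp29 therefore gave 16.0 and 16.2 reads per 100 Peg3 reads at D3, against 9.47 and 5.74 at D1, and 7.25 and 10.1 at D10, against 3.02 and 4.59 at D8. The ratio was higher at the end of each exposure than before it, but D10 replicate 1 lay below D1 replicate 1. Zim1, a maternally expressed zinc finger gene of the domain, stayed between 0.591 and 1.09 CPM with no call. About 14.3% of Usp29's exonic bases overlap the antisense gene Zim3, which had 285 reads in all libraries against 1414 for Usp29.

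The Usp29 window is shown because it holds the start of Peg3 as well. It lies at chr7:6730333-6730632 on the plus strand of GRCm38.p6, read from RefSeq, with 17 CpGs in capitals.
Usp29: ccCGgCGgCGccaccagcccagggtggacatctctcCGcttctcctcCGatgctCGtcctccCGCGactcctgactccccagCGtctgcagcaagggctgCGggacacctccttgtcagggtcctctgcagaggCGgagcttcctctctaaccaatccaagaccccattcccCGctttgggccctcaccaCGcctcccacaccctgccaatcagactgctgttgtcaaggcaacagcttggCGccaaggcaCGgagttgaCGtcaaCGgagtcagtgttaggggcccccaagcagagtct

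On proximal chromosome 6 all 4 tested members had a log2 fold change above 0 in each exposure, and 2 passed in each. Of the 19173 genes 9554 and 10025 were above 0, and 13% and 16.9% passed. Peg10, a gene derived from a retrotransposon and needed for the placenta, read 165 and 131 CPM at D3, against 51.6 and 58.7 CPM at D1. It read 188 and 279 CPM at D10, against 70.1 and 114 CPM at D8. All ML-792 libraries lay above all control libraries, the closest being D3 replicate 2 and D8 replicate 2. It rose by 1.42 ± 0.27 (adjusted p = 0.011) and 1.34 ± 0.26 (adjusted p = 0.012) on the log2 scale. The first call was lost without D1 replicate 1 (adjusted p = 0.088), D1 replicate 2 (0.079) or D3 replicate 1 (0.083), and the second without D10 replicate 2 (0.056).

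Asb4, a maternally expressed gene for an ankyrin repeat protein, was low. It had 24 and 26 reads at D3, against 6 and 5 reads at D1, and 29 and 45 reads at D10, against 6 and 7 reads at D8. These are 1.01 and 0.905 CPM at D3, against 0.287 and 0.155 CPM at D1, and 1.17 and 1.07 CPM at D10, against 0.196 and 0.225 CPM at D8, with no overlap between ML-792 and control libraries. It rose by 2.15 ± 0.46 (adjusted p = 0.018) and 2.38 ± 0.43 (adjusted p = 0.0088) on the log2 scale. The first call was lost without D1 replicate 1 (adjusted p = 0.06), D1 replicate 2 (0.16), D3 replicate 1 (0.11) or D3 replicate 2 (0.07), and the second held in all 8 fits that left out a library. By textbook knowledge Asb4 is maternally and Peg10 paternally expressed. The counts do not say from which copy either rise came.

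Sgce, the epsilon-sarcoglycan gene, has 98 bases between it and Peg10 and is also paternally expressed. It read 4.92 and 7.38 CPM at D3, against 2.91 and 3.72 CPM at D1, and 9.15 and 13.9 CPM at D10, against 4.18 and 8.20 CPM at D8. The groups did not overlap within an exposure, but neither change passed the test (log2 0.88 ± 0.38, adjusted p = 0.17, and 0.90 ± 0.37, adjusted p = 0.13). Sgce gave 2.99 and 5.62 reads per 100 Peg10 reads at D3, against 5.65 and 6.35 at D1, and 4.88 and 4.97 at D10, against 5.97 and 7.19 at D8. Ppp1r9a, which encodes neurabin, had log2 changes of 0.36 and 0.44 with no call.

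**Figure D3:**
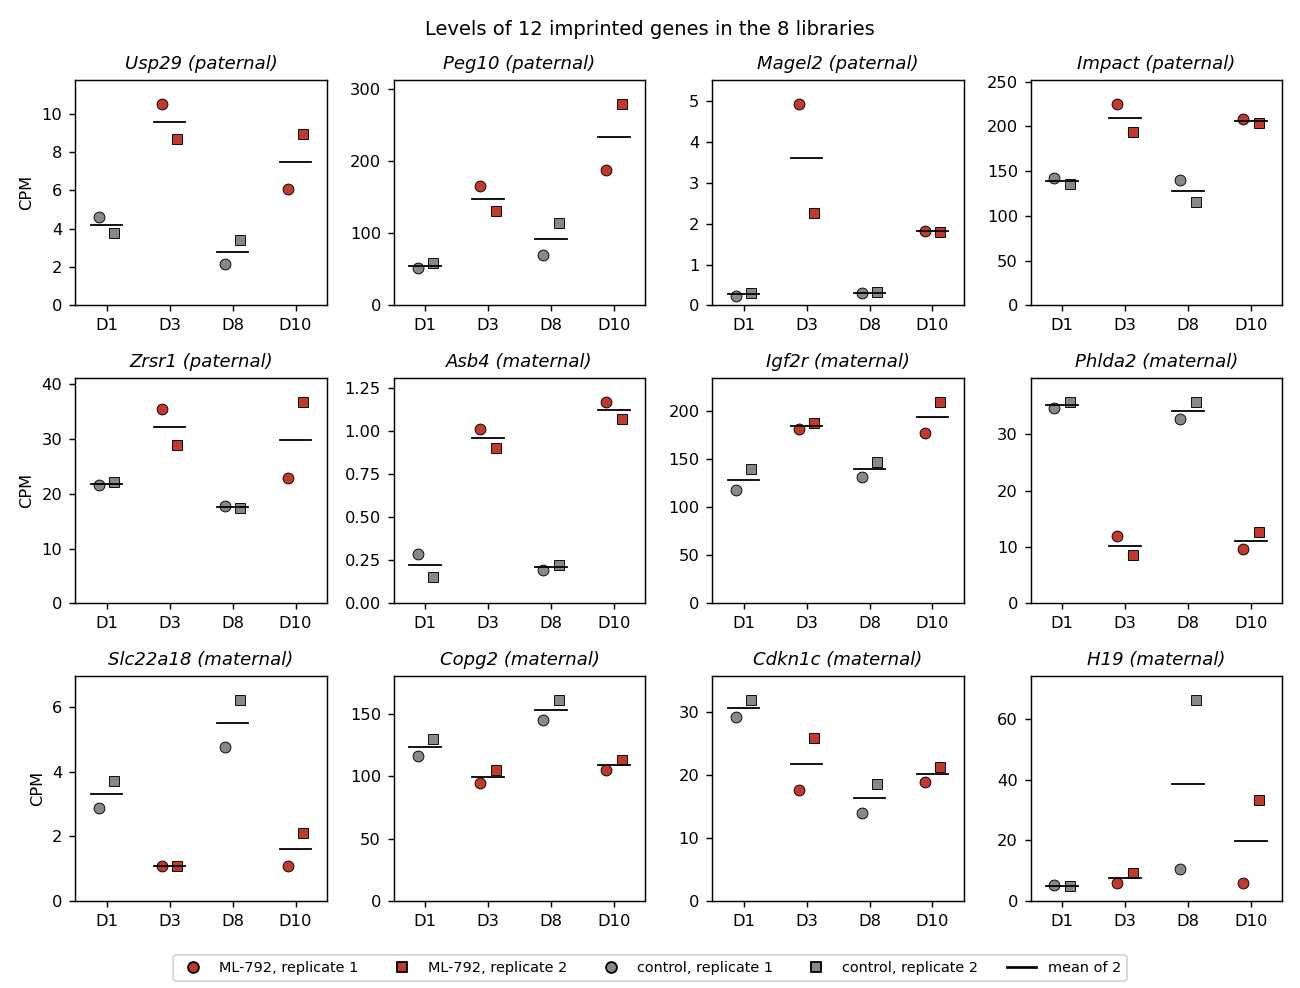
CPM in each of the 8 libraries for 12 imprinted genes, with the expressed allele in each title; bars are means of 2 libraries, red marks ML-792 (D3, D10) and grey control (D1, D8). Usp29, Peg10, Magel2, Impact, Zrsr1, Asb4 and Igf2r were higher in all 4 ML-792 libraries than in all 4 control libraries. Phlda2, Slc22a18 and Copg2 were lower in all 4, whereas Cdkn1c and H19 overlap.

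Central chromosome 7 is the Prader-Willi and Angelman region, with paternally expressed Snrpn, Ndn, Magel2 and Mkrn3 and maternally expressed Ube3a. Of its 5 members 1 passed in each exposure, where 13% and 16.9% of all genes did. Magel2, a MAGE gene of an endosomal ubiquitin ligase complex, had 117 and 65 reads at D3, against 5 and 10 reads at D1, and 45 and 76 reads at D10, against 9 and 10 reads at D8. Its level was 4.92 and 2.26 CPM at D3, against 0.239 and 0.310 CPM at D1, and 1.82 and 1.80 CPM at D10, against 0.294 and 0.322 CPM at D8. All ML-792 libraries lay above all control libraries, and the D8 libraries overlapped those of D1. The rise was 12.6-fold (log2 3.66 ± 0.48, adjusted p = 0.0037) in the first exposure and 5.82-fold (log2 2.54 ± 0.47, adjusted p = 0.009) in the second. Both calls held in all 8 fits that left out a library.

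No neighbour in the region passed the test. Ndn, the related MAGE gene necdin, read 12.4 and 16.3 CPM at D3, against 9.70 and 13.7 CPM at D1, and 10.7 and 19.7 CPM at D10, against 9.09 and 13.4 CPM at D8, so that the groups overlapped. Its log2 changes were 0.30 ± 0.33 (adjusted p = 0.61) and 0.44 ± 0.33 (adjusted p = 0.40). Magel2 gave 39.5 and 13.9 reads per 100 Ndn reads at D3, against 2.46 and 2.27 at D1, and 17.0 and 9.17 at D10, against 3.24 and 2.40 at D8. The ratio was higher in each ML-792 library than in each control library.

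Snrpn read 25.1 and 24.6 CPM at D3, against 24.3 and 24.2 CPM at D1, and 26.4 and 29.2 CPM at D10, against 24.5 and 23.9 CPM at D8. These are log2 changes of 0.04 ± 0.14 and 0.20 ± 0.14 with adjusted p of 0.90 and 0.37. Of its exonic bases 27.3% are shared with Gm38393 on the same strand, which had 14915 reads in all against 5966 for Snrpn, so how reads were split between them is uncertain. Mkrn3, a makorin ring finger gene, and Ube3a, a ubiquitin ligase gene, gave log2 changes of -0.31 and 0.05 in the first exposure and 0.00 and 0.54 in the second, with no call. Ube3a is imprinted in neurons and overlaps the antisense gene Snhg14 over 8.74% of its exonic bases. It passed in the second exposure without D8 replicate 1 (log2 1.32, adjusted p = 0.017).

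The Magel2 window is shown for comparison with the other strong responder, Phlda2. It lies at chr7:62376729-62377028 on the plus strand of GRCm38.p6, read from RefSeq, with 10 CpGs in capitals.
Magel2: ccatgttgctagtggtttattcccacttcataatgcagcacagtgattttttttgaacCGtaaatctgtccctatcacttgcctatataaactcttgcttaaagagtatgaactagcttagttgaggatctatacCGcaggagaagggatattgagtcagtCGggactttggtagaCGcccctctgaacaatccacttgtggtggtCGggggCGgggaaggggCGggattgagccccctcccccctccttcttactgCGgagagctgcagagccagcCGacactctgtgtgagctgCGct

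**Figure D4:**
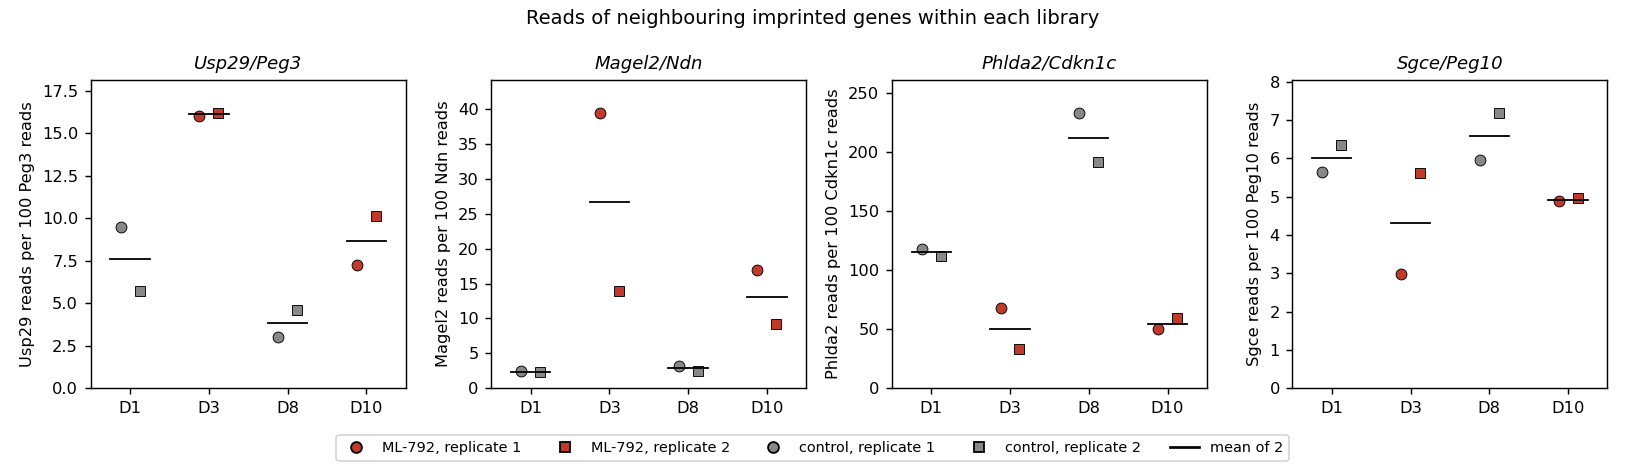
Reads of a member per 100 reads of an imprinted neighbour in each of the 8 libraries, for Usp29 and Peg3, Magel2 and Ndn, Phlda2 and Cdkn1c, and Sgce and Peg10; bars are means of 2 libraries. Magel2 per Ndn was 9.17 to 39.5 in ML-792 libraries and 2.27 to 3.24 in control libraries, and Phlda2 per Cdkn1c was 33.0 to 67.7 in ML-792 libraries and 112 to 233 in control libraries.

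Igf2r, the maternally expressed receptor that clears IGF2, read 181 and 187 CPM at D3, against 118 and 139 CPM at D1, and 177 and 209 CPM at D10, against 131 and 147 CPM at D8. All ML-792 libraries lay above all control libraries. It rose in the first exposure by 0.52 ± 0.14 on the log2 scale (adjusted p = 0.048), a call lost when any D1, D3 or D10 library was left out. The adjusted p was then 0.30 and 0.13 for D1 replicates 1 and 2, 0.22 and 0.24 for those of D3, and 0.06 each for those of D10. The second change of 0.48 ± 0.14 did not pass (adjusted p = 0.054), but did with DESeq2 (0.039) and with a stricter low-count filter (0.043). Airn, the antisense RNA that silences Igf2r on the paternal chromosome, had 67 reads in all libraries and log2 changes of 1.29 ± 0.61 (adjusted p = 0.21) and 0.69 ± 0.48 (adjusted p = 0.37).

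Impact read 225 and 194 CPM at D3, against 142 and 136 CPM at D1, and 208 and 204 CPM at D10, against 140 and 116 CPM at D8. All 4 ML-792 libraries lay above all 4 control libraries. It rose by 0.59 ± 0.14 (adjusted p = 0.028) and 0.69 ± 0.14 (adjusted p = 0.013) on the log2 scale. The first call was lost without D1 replicate 1 (0.14), D1 replicate 2 (0.18), D3 replicate 1 (0.24) or D3 replicate 2 (0.08). The second was lost without D8 replicate 2 (0.052), D10 replicate 1 (0.065) or D10 replicate 2 (0.058), and with the GC correction, where the log2 change was 0.34 (adjusted p = 0.057).

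Several clusters pair a paternally expressed gene with a maternally expressed partner that overlaps it. In the Mest cluster Copg2, a coatomer subunit gene, read 105 and 113 CPM at D10, against 145 and 161 CPM at D8, with no overlap of the groups. It fell by 0.49 ± 0.13 on the log2 scale (adjusted p = 0.038). In the first exposure it read 94.3 and 105 CPM at D3, against 116 and 130 CPM at D1 (log2 -0.30 ± 0.13, adjusted p = 0.18). The second call was lost without D1 replicate 1 (0.051), D1 replicate 2 (0.064), D3 replicate 1 (0.074), D3 replicate 2 (0.073), D8 replicate 2 (0.087), D10 replicate 1 (0.21) or D10 replicate 2 (0.08). Mest, a hydrolase-like gene of mesoderm, read 113 and 133 CPM at D3, against 134 and 124 CPM at D1, and 121 and 141 CPM at D10, against 128 and 118 CPM at D8. Its groups overlapped in both exposures, with log2 changes of -0.06 ± 0.14 and 0.09 ± 0.14 (adjusted p of 0.81 and 0.71). The genes share 912 exonic bases on opposite strands, and the strand setting of the counting is not given in the sources used here.

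Zrsr1 is a paternally expressed retrogene, related to a splicing factor, inside Commd1. It read 22.9 and 36.7 CPM at D10, against 17.7 and 17.4 CPM at D8, and rose by 0.76 ± 0.22 on the log2 scale (adjusted p = 0.048). At D3 it read 35.4 and 28.8 CPM, against 21.5 and 22.1 CPM at D1 (log2 0.56 ± 0.22, adjusted p = 0.14). The second change was 0.35 without D10 replicate 2 (adjusted p = 0.30). The call was also lost without D1 replicate 1 (0.086), D1 replicate 2 (0.083), D3 replicate 1 (0.082), D3 replicate 2 (0.082), D8 replicate 1 (0.082) or D8 replicate 2 (0.14), and with the GC correction (0.089). Commd1, a gene of copper metabolism, gave -0.09 and -0.13 with no call. Nap1l5, a nucleosome assembly retrogene, gave 0.65 and 1.29 (adjusted p = 0.39 and 0.082), and Mcts2 gave -0.02 and 0.13. Its host H13, the signal peptide peptidase gene, gave 0.25 and 0.28. Reads of retrogenes can match their parent genes, and how such reads were counted is not given in the sources used here.

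In edgeR's fit of the 4 groups no call was made for the remaining members in either exposure. Nnat, which encodes the membrane protein neuronatin, gave log2 0.80 ± 0.33 (adjusted p = 0.15) and 0.51 ± 0.32 (adjusted p = 0.30). It passed in the first exposure with the GC correction (0.96, adjusted p = 0.047). Peg13, a noncoding RNA inside Trappc9 with 135 reads in all, gave 0.61 and 1.45. Trappc9, a vesicle transport gene, gave -0.19 and -0.72 (adjusted p = 0.66 and 0.075). DESeq2 called Trappc9 lower in the second exposure (-0.70, adjusted p = 0.047). There edgeR with the replicate block called Trappc9 (-0.71, adjusted p = 0.0049) and Gnas (-0.38, 0.031). Without D10 replicate 1 Peg13 passed in the second exposure (2.04, adjusted p = 0.038), and without D8 replicate 1 so did Trappc9 (-0.95, adjusted p = 0.03) and Gnas (-0.56, adjusted p = 0.035). Gnas, the stimulatory G protein alpha subunit, gave -0.12 and -0.39 over all its transcripts. Plagl1, Zdbf2, Grb10, Ddc and Slc38a4 stayed between -0.35 and 0.31 in both exposures.

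D8 was compared with D1, that is, cells 5 days after the first exposure with cells before it. Of 39 members 0 passed in edgeR's test, where 0.177% of all genes did; 7 had an unadjusted p under 0.05, 5 higher and 2 lower, and DESeq2 called 1. Phlda2 (-0.05), Magel2 (0.14), Asb4 (-0.01), Impact (-0.12) and Igf2r (0.11) had log2 values within ± 0.20, with SEs of 0.14 to 0.56. Peg10 was at 0.74 ± 0.26 (adjusted p = 0.33), Slc22a18 at 0.73 ± 0.34 (adjusted p = 0.43) and Usp29 at -0.58 ± 0.31 (adjusted p = 0.48). D1 serves in this comparison and in the first exposure, and D8 in this and in the second.

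Cdkn1c was the member that DESeq2 called, at 14.0 and 18.7 CPM at D8, against 29.3 and 32.0 CPM at D1. The groups did not overlap. Its log2 change was -0.91 ± 0.22 with an adjusted p of 0.19 in edgeR and 0.015 in DESeq2. It also passed in edgeR with the GC correction (-1.18, adjusted p = 0.029). With no low-count filter it passed too (-0.89, adjusted p = 0.0063), but that fit also called H19, whose D8 libraries lay far apart. Of Cdkn1c's exonic bases 30.7% overlap the antisense gene Gm44732, which had 7 reads in all libraries.

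H19 read 10.8 and 66.2 CPM at D8, against 5.40 and 5.03 CPM at D1. Its other levels were 6.14 and 9.22 CPM at D3 and 5.99 and 33.4 CPM at D10, so replicate 2 of D8 and D10 stood high. At D8 against D1 it differed by 2.89 ± 0.91 on the log2 scale (adjusted p = 0.29). In edgeR with no low-count filter H19 passed in the second exposure (log2 -0.96, adjusted p = 0.00087). Despite the gap between the D8 libraries, that fit also called it at D8 against D1 (log2 2.92, adjusted p = 4.6e-26). Without D8 replicate 1 it passed (3.67, adjusted p = 0.046), and without D8 replicate 2 it was 1.05 (adjusted p = 0.85). In the exposures the changes were 0.56 ± 0.89 (adjusted p = 0.73) and -0.95 ± 0.83 (adjusted p = 0.48), and the second was 0.84 without D8 replicate 2.

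The same libraries stood high in the sum of 9 trophoblast markers. These summed to 82.5 and 258 CPM at D8, against 40.2 and 52.1 CPM at D1, and were at 27.0 and 29.7 CPM at D3 and 48.4 and 153 CPM at D10. Most of the sum came from the keratins Krt8 and Krt18, at 123 and 117 CPM in D8 replicate 2. In that library Cdx2 was at 0.740 CPM and Elf5 at 0.0643 CPM. Eomes overlapped between D8 and D1 (log2 0.24). Of the 8 tested, 0 passed between D8 and D1, with 6 at an unadjusted p under 0.05 and 0 by DESeq2. The 8 primitive endoderm markers summed to 513 and 747 CPM at D8, against 124 and 171 CPM at D1, and 5 of the 8 rose. Lama1, which was not among these 5, gave 395 and 575 CPM of the D8 sums. In the exposures 0 trophoblast markers passed by edgeR or DESeq2 and 0 had an unadjusted p under 0.05, while 2 primitive endoderm markers rose in the first and 1 fell in the second. The part of these cell types in the H19 level was not tested.

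**Figure D5:**
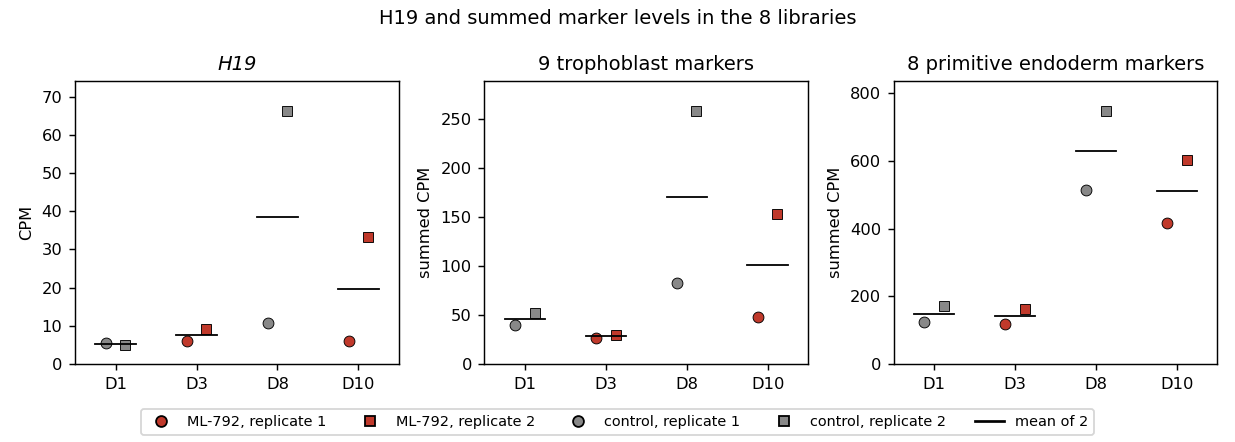
CPM of H19 (left) and summed CPM of 9 trophoblast markers (middle) and 8 primitive endoderm markers (right) in each of the 8 libraries; bars are means of 2 libraries, red marks ML-792 and grey control. H19 and both sums are highest in D8 replicate 2, at 66.2, 258 and 747 CPM. Most of the trophoblast sum there is Krt8 and Krt18 (123 and 117 CPM), and most of the endoderm sum is Lama1 (575 CPM).

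Genes of the machinery that keeps imprints were followed as a list of 14. None passed in the first exposure by edgeR (1 at an unadjusted p under 0.05, 0 by DESeq2) or in the second (2 at an unadjusted p under 0.05, 1 lower by DESeq2). Zfp57 read 247 and 246 CPM at D3, against 364 and 279 CPM at D1, and 210 and 177 CPM at D10, against 342 and 188 CPM at D8 (log2 -0.38 and -0.45). Trim28, the corepressor, read 1980 and 1880 CPM at D3, against 1880 and 1840 CPM at D1, and 1550 and 1700 CPM at D10, against 1640 and 2000 CPM at D8 (log2 0.06 and -0.17). The maintenance methyltransferase gene Dnmt1 gave -0.04 and -0.15, its partner Uhrf1 -0.21 and -0.40, and Zfp445, a second imprint-binding zinc finger gene, 0.24 and 0.75. Ehmt2 and Dppa3 are named after their values were seen. Ehmt2 was lower without overlap in each exposure (log2 -0.50 and -0.56, adjusted p of 0.083 and 0.05 in edgeR), with no call. Between D8 and D1 0 of the 14 passed by edgeR, 1 had an unadjusted p under 0.05, and DESeq2 called 1 higher. Dppa3 read 3.43 and 11.9 CPM at D8, against 1.05 and 1.21 CPM at D1 (log2 2.75, edgeR adjusted p = 0.22). All these values are RNA levels, and neither SUMO attachment nor DNA methylation was part of the counts.

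RefSeq promoter windows on GRCm38.p6 were found for 34 members, 53 windows in all. The hexamer TGCCGC, bound by ZFP57 where methylated, was searched on both strands. It occurred in 13 of 53 member windows (24.5%), against 3813 of 32851 windows of all genes (11.6%). Member windows were also richer in CpG, with a median of 15 per 300 bases against 7, and in GC, at a median of 57.7% against 52.7%. None of the 4 windows printed above holds the hexamer. A promoter window is not the imprinting control region, and a match of letters is a description only. No window was matched for Peg10, Sgce, H19, Cdkn1c, Impact, Peg13, Trappc9 or Kcnk9.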

How the data were processed

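RNA of 8 libraries was sequenced. The authors deposited raw counts: each value is the unscaled number of reads of an Ensembl gene. Per the labels' protocols, a kit for stranded total RNA was used after ribosomal RNA depletion, although the molecule is labelled polyA RNA. Per the submitters' processing notes, the tools were bcl2fastq 2.17.1.14, STAR 2.5.0a and featureCounts, with build mm10. Not given in the sources used here: annotation release, strand setting and how reads with several matches were treated. Symbols, coordinates and exon lengths were taken from GENCODE M21, which named 36901 of 36920 identifiers.

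The members and lists were chosen with earlier results of these data known. Every member could be named by rule, and values in each library were given for members called in an exposure and for H19, Igf2, Peg3, Snrpn, Mest, Cdkn1c, Igf2r and Kcnq1ot1. Sgce and Ndn were added as neighbours after their values were seen. Genes passing filterByExpr (19173) were fitted in edgeR 4.0.16 (R 4.3.3) as 4 groups with TMM scaling and 4 residual degrees of freedom. The biological coefficient of variation was 19.6%. Tests were 2-sided quasi-likelihood tests with Benjamini-Hochberg adjustment over all genes tested, called under 0.05. The SE is the size of the log2 fold change divided by the square root of F. The script was tested on simulated data. Alternatives were DESeq2 1.42.0, RLE scaling, other filters, a fit of 2 groups, a replicate block, a GC correction and leaving out each library. The GC correction was a loess curve (span 0.3) of each library's deviations on GC, given to edgeR as an offset. It used the GC of the longest GENCODE transcript. Without molecular identifiers, reads do not stand for independent molecules.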

Additional observations from a re-analysis of the deposited data

Results flagged for a closer look

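Cdkn1c, the cell cycle inhibitor gene of distal chromosome 7, was the only member whose libraries moved in opposite directions without overlap. Both D3 libraries (17.7 and 25.9 CPM) lay below both D1 libraries (29.3 and 32.0 CPM), and both D10 libraries (19 and 21.4 CPM) lay above both D8 libraries (14.0 and 18.7 CPM). The response was -0.49 on the log2 scale in the first exposure and 0.31 in the second, and the second minus the first was 0.80 ± 0.31. In edgeR's test of that difference the adjusted p was 1 (unadjusted p = 0.031), so the difference failed the correction over all genes. Neither response passed by itself. The second passed with the GC correction (log2 0.64, adjusted p = 0.031).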

How the results depend on the processing

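Of the 10 members called in either exposure 8 lost a call in some fit that left out a library, while Phlda2 and Magel2 kept both. Against 8 members in the first exposure, 2 to 8 passed when a library was left out and 13 with the replicate block and GC correction together. Against 9 in the second, 4 to 13 passed when a library was left out, 3 when the 2 groups were fitted alone, 17 with no low-count filter, 16 with the replicate block and 14 with block and GC correction. Between D8 and D1, where 0 passed, 0 to 2 did when a library was left out, 4 with no filter, 2 with the block, 1 with the GC correction, 3 with both and 1 by DESeq2. The difference between exposures gave 1 member with no filter and 0 in each fit that left out a library. The member called in that difference with no filter was H19 (edgeR, log2 -1.52, adjusted p = 0.012). The share of all genes called moved with the setting as well. With block and GC correction together it was 28.2% in the first exposure and 30.2% in the second. In the second it was 8.21% for the 2 groups alone, 12.9% with no filter and 27.6% with the replicate block. The cause of the shifts between settings was not tested. Over single members, 2325 combinations of result and setting kept their side of the threshold, 55 lost a call and 61 gained one. Of the 2325, 149 changed sign, all without a call in either fit, and 0 called values changed sign. The paternal median stayed between 0.20 and 0.54 in the first exposure and 0.23 and 0.53 in the second, and the maternal one between -0.41 and 0.11, and -0.26 and 0.00. Depth limits Asb4, with 5 to 45 reads a library, and Magel2, with 5 to 117.

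The replicate numbers are shared between groups, but no label says what they stand for and there are only 2 a group, so they were not taken as pairs. Deviations of same-numbered libraries correlated across 19173 genes at 0.101 to 0.498 over 6 pairs of groups. With the replicate block 11 members passed in the first exposure, where 21.8% of all genes did. The added members were Cdkn1c (log2 -0.51, adjusted p = 0.04), Tspan32 (-1.10, 0.045) and Sgce (0.88, 0.02). Sgce also passed with the block in the second (0.93, 0.0097), and Cdkn1c between D8 and D1 (-0.92, 0.016).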

Other observations

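Genes that flank the members, and are no members themselves, were followed as well. They were the 87 tested protein-coding genes within 250 kb of a member. They were not sorted by imprinting, so they do not stand for a set of genes that are not imprinted. Any imprinted genes among them, of either expressed allele, are left out of the members' counts and medians. Of the 87 flanking genes 12 passed in the first exposure (13.8%, of which 7 rose and 5 fell). In the second 15 passed (17.2%, of which 9 rose and 6 fell). The shares over all genes were 13% and 16.9%, and the median log2 changes of the flanking genes were -0.05 and -0.14. The genes named next were chosen after their values were seen.

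Beside Phlda2 and Slc22a18, which fell, lie Tnfrsf22 and Tnfrsf23, decoy receptor genes of the TNF receptor family. Tnfrsf23 read 2.82 and 2.16 CPM at D3, against 0.287 and 0.031 CPM at D1, and 2.15 and 2.42 CPM at D10, against 0.0327 and 0.161 CPM at D8. It rose by 4.13 ± 0.70 (edgeR, adjusted p = 0.0082) and 4.50 ± 0.71 (adjusted p = 0.0052) on the log2 scale. Tnfrsf22 rose by 1.25 ± 0.21 and 0.88 ± 0.21 (adjusted p of 0.0076 and 0.022). Neighbouring genes of this domain thus passed in opposite directions. Klf14, a Krüppel-like factor gene next to Copg2, had 0.589 and 0.731 CPM at D3, against 0.0956 and 0.0621 CPM at D1, and 1.01 and 1.16 CPM at D10, against 0.0981 and 0.161 CPM at D8. It rose by 3.06 ± 0.56 and 3.03 ± 0.48 (adjusted p of 0.011 and 0.0051). Pon2, a paraoxonase gene between Ppp1r9a and Asb4, rose by 1.28 ± 0.21 and 1.69 ± 0.21 (adjusted p of 0.007 and 0.0022). Sod2, the mitochondrial superoxide dismutase gene near Igf2r, read 93.1 and 91.9 CPM at D3, against 152 and 183 CPM at D1, and 82.4 and 88.2 CPM at D10, against 159 and 159 CPM at D8. It fell by 0.86 ± 0.13 and 0.89 ± 0.13 on the log2 scale (adjusted p of 0.0063 and 0.004).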
